A study of Mus musculus with 9 samples.

Results

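The choroid plexus is a fringed tissue that hangs in the ventricles of the brain. Its epithelium, a single sheet of polarised cells joined by tight junctions, secretes cerebrospinal fluid and separates that fluid from the blood. The sheet moves sodium, chloride, bicarbonate and water, carries folate and thyroid hormone from blood to fluid, and is known for an extreme output of transthyretin. The plexus of the lateral ventricle is attached beside the hippocampus, along the fimbria. The genes described here are 31 symbols known from this epithelium, all of which were found by name in the deposited table of 57180 genes. They were sorted by role into 7 secreted products, 5 receptors and surface proteins, 10 transporters and channels, 4 genes of junctions and keratins, 3 transcription factors and 2 adaptor proteins.

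Whole hippocampus of C57BL6 mice aged 11 days was profiled by RNA-seq. In 4 mice (cKO) Slc38a3, which encodes the glutamine transporter SNAT3, was knocked out selectively in endothelial cells, and 5 mice were wild type (WT). The sources used here name neither the driver of the knockout nor the allele, so its cell type is known only from the submitters' design text. The cKO mice were 3 males (replicates 1, 3 and 4) and 1 female (replicate 2), and the WT mice were 1 male (replicate 1) and 4 females (replicates 2 to 5). Both groups shared strain, age and tissue.

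All values are normalized counts, which are reads per gene divided by a factor for the depth of each library. They can be compared between libraries, but between genes only after division by transcript length. The libraries held 30803135 to 34034530 reads, so depth differed little between them. Slc38a3 itself was 2821 ± 829.8 in WT (SD, n = 5) and 351 ± 49.4 in cKO (SD, n = 4), a log2 fold change of -2.99 (limma adjusted p = 5.54e-05), with no overlap between the groups. The 8 hippocampal neuron genes used as a check had a mean log2 level of 11.2 to 11.5 in every library. With no other tissue to compare, this does not test the tissue label. All 31 choroid plexus genes reached the mean of 10 normalized counts that was required for testing. Litters are not recorded in the labels, and p-values therefore reflect only how far these samples spread.

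3 of the genes encode transcription factors, and their level rose with that of the others in the results that follow. For that reason the bases before the start of 5 genes are shown, with matches to the short motifs of these factors in capitals: TAATCC, bound by Otx2, and TAATTA, a core shared by many homeodomain proteins such as Lmx1a and Msx1. Both strands were searched, so a minus-strand TAATCC appears as GGATTA, and the motifs share their first 4 letters but no match overlapped another. In the windows shown, Otx2 and Abca4 held both motifs and Ace held TAATCC. Slc4a5 and Tmem72, whose levels followed Ttr most closely in proportion, held neither. Otx2 and Ace also had windows at other starts with neither motif. Each run is the 250 bases upstream of a single start of the gene, 5′ to 3′ on the strand of the gene, from RefSeq.
Otx2 (GRCm38.p6, chr14:48665110-48665359, minus strand): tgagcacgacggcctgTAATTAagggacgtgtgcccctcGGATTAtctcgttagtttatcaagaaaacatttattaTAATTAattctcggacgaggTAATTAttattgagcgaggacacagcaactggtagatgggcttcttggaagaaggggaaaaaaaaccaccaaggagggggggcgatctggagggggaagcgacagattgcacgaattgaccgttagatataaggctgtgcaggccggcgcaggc
Abca4 (GRCm38.p6, chr3:122044210-122044459, plus strand): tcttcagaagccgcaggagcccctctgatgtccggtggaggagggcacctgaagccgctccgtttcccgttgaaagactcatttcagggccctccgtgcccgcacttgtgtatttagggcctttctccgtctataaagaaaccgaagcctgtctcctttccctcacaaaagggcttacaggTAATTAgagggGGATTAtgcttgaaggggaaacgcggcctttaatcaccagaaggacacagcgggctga
Ace (GRCm38.p6, chr11:105967698-105967947, plus strand): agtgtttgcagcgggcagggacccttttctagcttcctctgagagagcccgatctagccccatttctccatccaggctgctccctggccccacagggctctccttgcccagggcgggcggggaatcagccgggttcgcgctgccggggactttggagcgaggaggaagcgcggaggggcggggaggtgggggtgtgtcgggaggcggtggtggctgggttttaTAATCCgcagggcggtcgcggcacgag
Slc4a5 (GRCm38.p6, chr6:83237125-83237374, plus strand): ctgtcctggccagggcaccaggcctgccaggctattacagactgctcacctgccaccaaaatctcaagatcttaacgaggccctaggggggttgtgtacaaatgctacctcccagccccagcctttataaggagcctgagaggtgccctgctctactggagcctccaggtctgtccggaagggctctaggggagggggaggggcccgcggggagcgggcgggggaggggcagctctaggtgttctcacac
Tmem72 (GRCm38.p6, chr6:116716759-116717008, minus strand): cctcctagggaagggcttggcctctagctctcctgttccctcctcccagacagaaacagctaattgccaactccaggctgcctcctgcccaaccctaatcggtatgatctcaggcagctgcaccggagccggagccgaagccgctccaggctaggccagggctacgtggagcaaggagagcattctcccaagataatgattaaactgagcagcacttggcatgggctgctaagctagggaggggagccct

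RefSeq windows of 300 bases, 250 before and 50 after a start, were found for 25 of the 31 genes, 34 windows in all. TAATCC was in 3 of the 34 windows (8.82%), against 7.06% of all 32851 windows. TAATTA was in 4 of the 34 (11.8%), in Abca4, Cldn1 and 2 windows of Otx2, against 5.29% of all windows. A match describes the letters only, and a window without one says nothing about the factor.

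Ttr encodes transthyretin, the carrier of thyroid hormone and of retinol-binding protein that the plexus secretes into cerebrospinal fluid. It was the most abundant of the 31 genes, with a mean of 12392 normalized counts per kb of exon over the 9 libraries, against 805 for Enpp2, the next. Ttr (ENSMUSG00000061808, chromosome 18, 20798336 to 20807378 in GRCm39) stood at 258, 41329, 9170.5, 23638 and 2336 in WT replicates 1 to 5, and at 21539, 2741, 211 and 31054 in cKO replicates 1 to 4. Each genotype held libraries at both ends of this range, and the groups overlapped throughout. The highest library stood 196-fold above the lowest, a span of 7.61 on the log2 scale. In falling order they were WT replicate 2, cKO 4, WT 4, cKO 1, WT 3, cKO 2, WT 5, WT 1 and cKO 3, so neither genotype held one end of the order. The 4 males included the second highest library and the lowest pair.

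In whole-tissue RNA, fewer cells of a type and less RNA per cell cannot be told apart. The labels do not record how much plexus was collected with each hippocampus, and the part this plays in the values below was not tested.

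**Figure D1:**
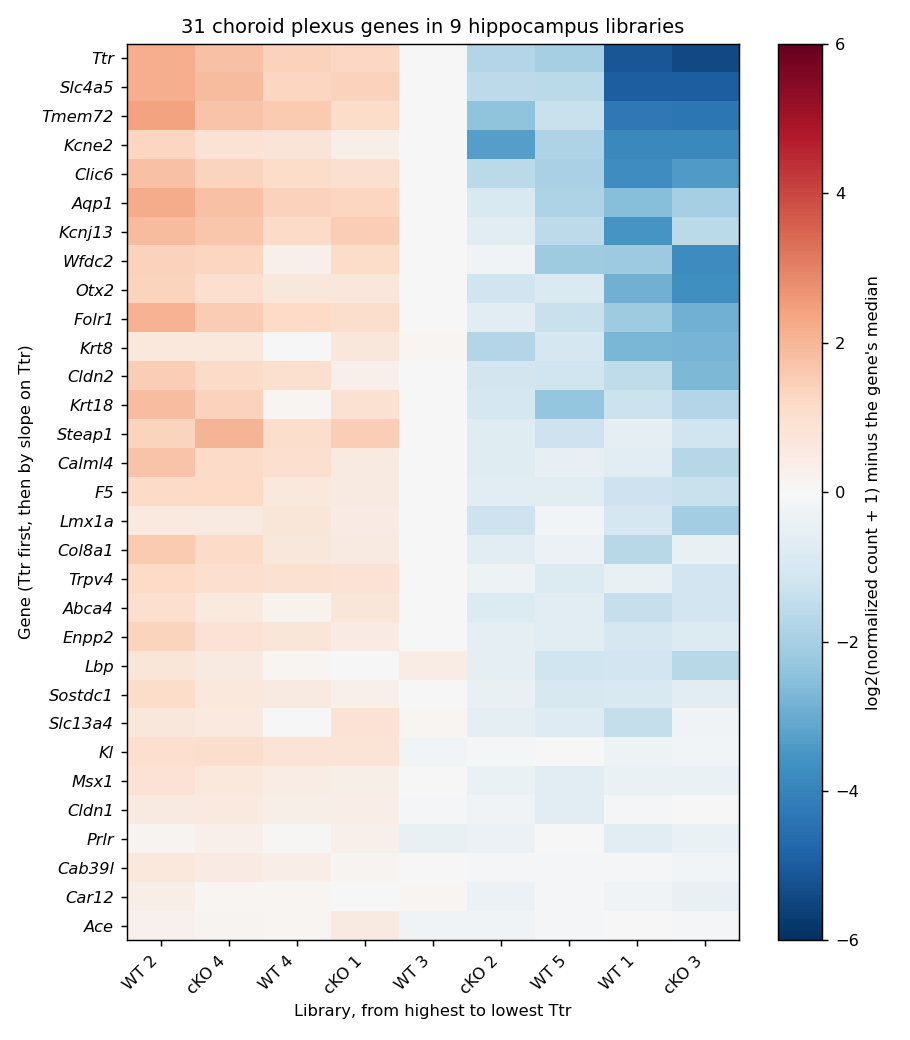
Levels of the 31 choroid plexus genes in the 9 libraries, as log2(normalized count + 1) minus each gene's median, with Ttr and then the other genes by slope in rows and libraries in columns in falling order of Ttr. Most rows pass from high to low along the same order, with WT replicate 2 the highest library for 22 of the 31 genes and cKO replicate 3 or WT replicate 1 the lowest for 25.

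The heat map of all 31 genes shows that most of them ordered the libraries much as Ttr did. WT replicate 2 was the highest library for 22 of the 31 genes. The lowest library was cKO replicate 3 for 16 genes and WT replicate 1 for 9. To put a size on this, each gene's log2 level was fitted on log2 Ttr with genotype and sex as terms (limma-trend). A slope of 1 means that a gene changed in proportion to Ttr, and a slope of 0 that it did not follow it. The slope passed an adjusted p of 0.05 for 27 of the 30 genes other than Ttr (90%), each above 0. Of all 17035 genes tested, 0.393% passed above 0, 67 genes in all, and the 27 made up 40.3% of those. The median slope was 0.34 over the 30 genes and -4.2e-04 over all genes tested. Slopes ran from 0.07 for Ace to 0.96 for Slc4a5: 10 were over 0.5, 13 between 0.2 and 0.5, and 7 under 0.2, bands that were chosen after the values were seen.

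**Figure D2:**
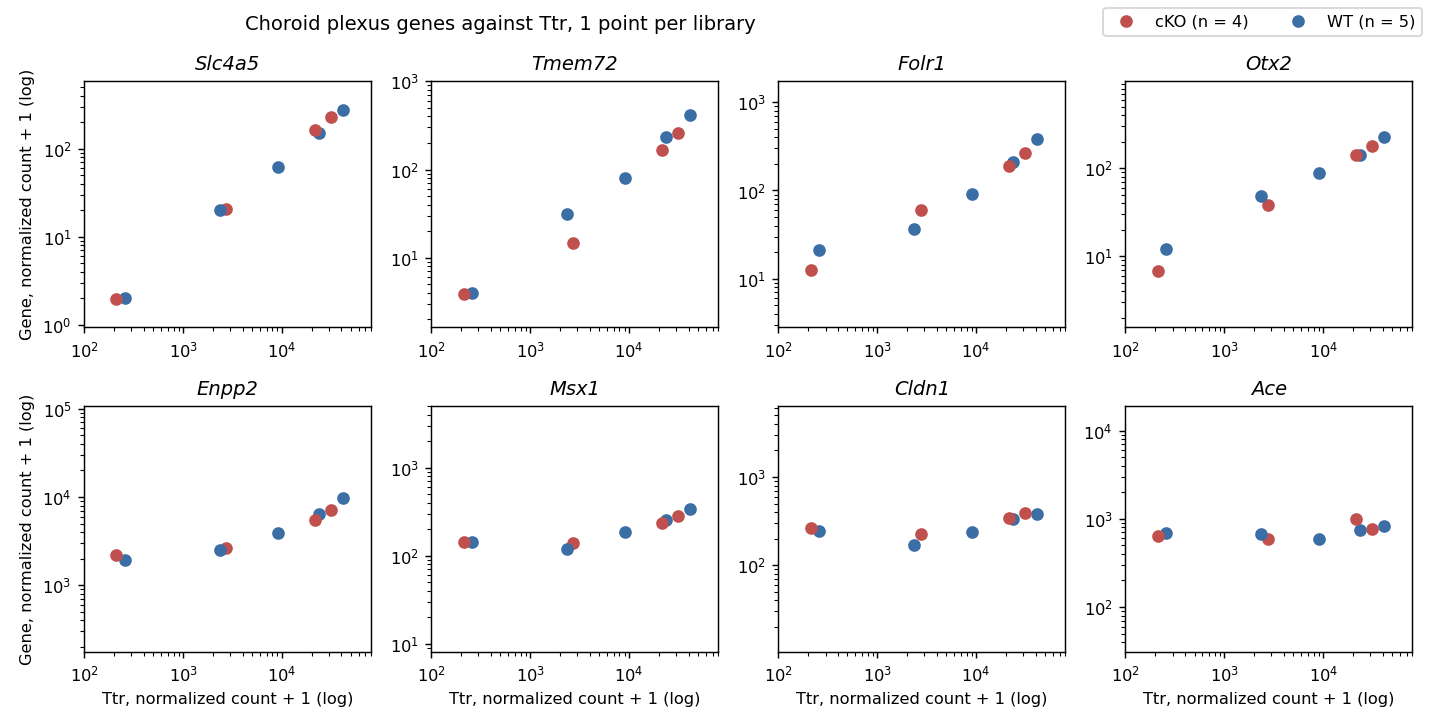
Level of 8 choroid plexus genes, chosen after their values were seen, against Ttr in the same library, both as normalized count + 1 on log axes, with 1 point per library, cKO and WT in different colours. Genes with slopes near 1, such as Slc4a5 (0.96), climb in step with Ttr, while Ace (0.07) stays nearly level. Points of both genotypes are found at high and at low Ttr.

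A second measure asked how much of each gene's level was left at no Ttr. A straight line of the gene's normalized count on that of Ttr over the 9 libraries was extended to a Ttr of 0, and its height there is given as a percentage of the gene's mean. It is a description without a test. By this measure 11 genes had under 25% of their mean left, 14 had 25 to 70%, and 5 had over 70%. Those limits, too, were chosen after the values were seen.

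The 10 transporters and channels held the genes closest to proportion with Ttr. All 10 passed the slope test, with a median slope of 0.62.

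Slc4a5 encodes a sodium-bicarbonate cotransporter that feeds the secretion of fluid. Slc4a5 (ENSMUSG00000068323, chromosome 6, 83196809 to 83281927) was at 1.00, 276, 60.6, 149 and 19.4 normalized counts in WT replicates 1 to 5 and at 162, 19.6, 0.970 and 230.1 in cKO replicates 1 to 4. It was therefore down to about a single read in the pair of libraries lowest in Ttr and above 100 in the 4 highest. Its slope was 0.96 ± 0.0328 (SE, limma adjusted p = 2.62e-09), the steepest of the 30 over all libraries, and 0.884% ± 4.79 (SE) of its mean was left at no Ttr. Without the pair lowest in Ttr the slope was 0.90 ± 0.0589, under the 0.99 of Aqp1. With a pseudocount of 5 it was 0.77, against a highest slope of 0.79.

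Tmem72 (ENSMUSG00000048108, chromosome 6, 116656023 to 116693874), a transmembrane protein, behaved much the same. It stood at 2.99, 416, 78.2, 235 and 30.1 in WT and at 167, 13.7, 2.90 and 257 in cKO, near 3 in the pair of libraries lowest in Ttr. Its slope was 0.91 ± 0.0410 (limma adjusted p = 3.35e-08), and the line reached -3.99% ± 7.96 of its mean at no Ttr, which is 0 within its error. Without that pair the slope was 0.92 ± 0.0626.

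Clic6, of the chloride intracellular channel family, was the transporter with the widest span among those with over 3 reads in every library. Clic6 (ENSMUSG00000022949, chromosome 16, 92282623 to 92338131) held 16.0, 749, 222, 485 and 57.0 in WT and 427, 71.5, 20.3 and 566 in cKO, a 46.9-fold range. Its slope of 0.74 ± 0.0319 (limma adjusted p = 2.98e-08) stood beside 9.23% ± 3.67 of the mean left at no Ttr.

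Aqp1 is the water channel of the apical membrane. Aqp1 (ENSMUSG00000004655, chromosome 6, 55313416 to 55325540) reached 20.9, 611, 128, 335 and 34.4 in WT replicates and 318, 67.6, 31 and 437 in cKO replicates, a 29.2-fold range. The slope over all libraries was 0.63 ± 0.0508 (limma adjusted p = 1.49e-05). Without cKO replicate 3 and WT replicate 1, where Aqp1 stayed at 31 and 20.9, the slope was 0.99 ± 0.0416 (adjusted p = 7.89e-07). The straight line over all 9 libraries left 6.56% ± 3.03 of its mean at no Ttr.

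Kcne2 encodes an accessory subunit of potassium channels and Kcnj13 the inward rectifier Kir7.1. Kcne2 (ENSMUSG00000039672, chromosome 16, 92089276 to 92095017) was at 4.99, 209, 85.1, 145 and 22.6 in WT and 109, 7.83, 4.84 and 157 in cKO, and its slope was 0.76 ± 0.0497 (limma adjusted p = 1.79e-06). In cKO replicate 2 Kcne2 lay well under its level in WT replicate 5, although Ttr was a little higher there. Kcnj13 (ENSMUSG00000079436, chromosome 1, 87314084 to 87322451) was at 2.99, 173, 46.0, 103 and 15.1 in WT and 128, 28.4, 14.5 and 147 in cKO, with a slope of 0.61 ± 0.0560 (limma adjusted p = 4.74e-05). Kcnj13 went the other way in the same pair of libraries, higher in cKO replicate 2 than in WT replicate 5. The shares left at no Ttr were 11.8% ± 8.87 for Kcne2 and 15.4% ± 8.13 for Kcnj13. Kcnj13 lies within the span of Gigyf2, which was steady at 2418 to 2816, and whether the counting used strand is not given in those sources.

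Abca4, a retinoid transporter, and Trpv4, a cation channel opened by osmotic and mechanical stimuli, were of intermediate slope. Abca4 (ENSMUSG00000028125, chromosome 3, 121838091 to 121973772) read 37.9, 199, 99.8, 117 and 62.4 in WT and 166, 55.8, 44.5 and 149.9 in cKO, for a slope of 0.31 ± 0.0295 (limma adjusted p = 7.75e-05). Trpv4 (ENSMUSG00000014158, chromosome 5, 114760212 to 114796482) read 40.9, 131, 56.7, 108 and 31.2 in WT and 104, 45, 25.2 and 115 in cKO, for a slope of 0.31 ± 0.0369 (limma adjusted p = 0.000692). Neither neared 0 in the libraries lowest in Ttr: 48.1% ± 8.60 of the mean of Abca4 and 47.1% ± 6.55 of that of Trpv4 were left at no Ttr. Without the pair of libraries lowest in Ttr, the slope of Trpv4 was 0.51 ± 0.0626 (adjusted p = 0.00428), while that of Abca4, 0.35 ± 0.0641, no longer passed (adjusted p = 0.073).

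Slc13a4, a sodium-sulfate cotransporter, followed Ttr less strictly. Slc13a4 (ENSMUSG00000029843, chromosome 6, 35244891 to 35285066) was at 87.8, 379, 257, 240.0 and 141 in WT and 444, 163, 209.9 and 361 in cKO. Its highest library was cKO replicate 1, not WT replicate 2, and cKO replicate 3, the lowest in Ttr, still held more than WT replicate 5. The slope was 0.23 ± 0.0372 (limma adjusted p = 0.0112), with 63.1% ± 14.1 of the mean left at no Ttr. Without WT replicate 1 or cKO replicate 2 it was 0.17 in both fits (adjusted p = 0.0543 and 0.0578), without WT replicate 2 it was 0.21 (adjusted p = 0.0540), and without cKO replicate 1 it was 0.22 (adjusted p = 0.0902).

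Car12, a carbonic anhydrase on the cell surface, was the flattest of the 10. Car12 (ENSMUSG00000032373, chromosome 9, 66620967 to 66674127) was at 937, 1411, 1175, 1189 and 993 in WT and 1093, 866, 800.1 and 1204 in cKO, within a 1.76-fold range. The slope was small but passed, at 0.08 ± 0.0101 (limma adjusted p = 0.000721), and 84.3% ± 3.98 of its mean was left at no Ttr. Without the pair of libraries lowest in Ttr it was 0.11 ± 0.0245 and did not pass (adjusted p = 0.278).

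Among the 5 receptors and surface proteins, 3 passed the slope on Ttr and 2 did not, while all 5 had an unadjusted p under 0.05. Folr1 is the folate receptor by which the epithelium hands folate to cerebrospinal fluid. Folr1 (ENSMUSG00000001827, chromosome 7, 101507537 to 101519995) was at 19.9, 385, 91.0, 212 and 35.5 in WT and 187, 58.8, 11.6 and 267 in cKO, a 33.2-fold range in which the 9 libraries kept the order they had in Ttr. Its slope was 0.61 ± 0.0377 (limma adjusted p = 1.09e-06), with 11.4% ± 4.25 of its mean left at no Ttr. Folr1 overlaps Anapc15, whose own slope on Ttr was -0.0011.

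Steap1, of a family of metalloreductases, was at 14.0, 56.1, 21.5, 46.2 and 8.60 in WT and 60.7, 12.7, 8.71 and 90.5 in cKO. Steap1 (ENSMUSG00000015652, chromosome 5, 5786316 to 5799326) was highest in cKO replicate 4, and its slope was 0.45 ± 0.0455 (limma adjusted p = 0.000144). Kl encodes Klotho, co-receptor for a hormone of the fibroblast growth factor family. Kl (ENSMUSG00000058488, chromosome 5, 150876071 to 150917282) was at 275, 699, 301, 605 and 342 in WT and 613, 322, 301 and 711 in cKO. Even its lowest library, WT replicate 1, held 275, and the slope was 0.20 ± 0.0262 (limma adjusted p = 0.00189), with 62.6% ± 6.23 of the mean left at no Ttr. Without the pair of libraries lowest in Ttr the slope of Kl was 0.28 ± 0.0613 and did not pass (adjusted p = 0.276).

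Prlr, the prolactin receptor, and Ace, the angiotensin-converting enzyme, changed little with Ttr. Their slopes were above 0, with unadjusted p of 0.00113 for Prlr and 0.00173 for Ace (limma-trend). Prlr (ENSMUSG00000005268, chromosome 15, 10177323 to 10349266) was at 86.8, 153, 97.8, 145 and 135 in WT and 169, 107, 104 and 168 in cKO, with a slope of 0.11 ± 0.0263 that did not pass (limma adjusted p = 0.214). Ace (ENSMUSG00000020681, chromosome 11, 105858770 to 105880790) was at 693, 819, 589.7, 753 and 669.9 in WT and 1000.3, 596, 644 and 774 in cKO, with the lowest slope of the 30, 0.07 ± 0.0168 (limma adjusted p = 0.286). The highest library of both genes was cKO replicate 1. At no Ttr, 81.5% ± 7.56 of the mean of Prlr and 89.0% ± 6.96 of that of Ace were left.

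The 6 secreted products other than Ttr all passed, with slopes from 0.24 to 0.61. Enpp2 encodes autotaxin, the enzyme that makes lysophosphatidic acid outside the cell and that oligodendrocytes also produce. Enpp2 (ENSMUSG00000022425, chromosome 15, 54702296 to 54816288) was at 1951, 9667, 3879.6, 6434 and 2527 in WT and 5443, 2609.7, 2189.5 and 7174 in cKO. It was lowest in WT replicate 1 and 4.96-fold higher in WT replicate 2. The slope was 0.29 ± 0.0276 (limma adjusted p = 7.17e-05), or 0.46 ± 0.0316 (adjusted p = 3.6e-05) without the pair of libraries lowest in Ttr. The straight line left 2062 ± 131 normalized counts (SE) at no Ttr, 44.3% ± 2.82 of the mean, and added 176 normalized counts of Enpp2 per 1000 of Ttr.

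F5 encodes coagulation factor V, Lbp the binding protein of bacterial lipopolysaccharide, and Col8a1 a chain of the short collagen VIII. F5 (ENSMUSG00000026579, chromosome 1, 163979406 to 164047846) was at 35.9, 191, 85.1, 132 and 53.8 in WT and 122, 54.8, 32.9 and 199 in cKO, with a slope of 0.35 ± 0.0285 (limma adjusted p = 1.49e-05). Lbp (ENSMUSG00000016024, chromosome 2, 158148412 to 158174772) was at 86.8, 315, 260.1, 204 and 81.7 in WT and 191, 126, 59.0 and 279 in cKO, with a slope of 0.29 ± 0.0371 (limma adjusted p = 0.00159). Col8a1 (ENSMUSG00000068196, chromosome 16, 57444620 to 57575100) was at 48.9, 460.1, 156, 252 and 122 in WT and 225, 97.0, 113 and 349.8 in cKO, with a slope of 0.32 ± 0.0479 (limma adjusted p = 0.00583). Lbp was higher in WT replicate 3 than in WT replicate 4, against the order of Ttr, while F5 and Col8a1 were not. Between 37.6% (Col8a1) and 55.3% (Lbp) of the mean of these 3 genes was left at no Ttr. The slope of Lbp was 0.42 ± 0.0822 without the pair of libraries lowest in Ttr (adjusted p = 0.118), and that of Col8a1 was 0.31 without cKO replicate 4 (adjusted p = 0.0709). Neither passed there.

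Sostdc1 encodes a secreted inhibitor of BMP and Wnt signals, and Wfdc2 a small secreted protein with whey acidic protein domains. Sostdc1 (ENSMUSG00000036169, chromosome 12, 36364137 to 36368451) was at 139.6, 555, 260.1, 377 and 133 in WT and 321, 190.0, 164 and 399 in cKO. Below the 5 libraries highest in Ttr it was level, between 133 and 190.0, and the slope of 0.24 ± 0.0348 (limma adjusted p = 0.00414) became 0.48 ± 0.0362 (adjusted p = 5.98e-05) without the pair lowest in Ttr. Wfdc2 (ENSMUSG00000017723, chromosome 2, 164404332 to 164410430) was scarce, at 1.99, 34.3, 12.7, 16.1 and 2.15 in WT and 28.8, 10.8, 0 and 33.0 in cKO. Its slope of 0.61 ± 0.0813 (limma adjusted p = 0.00189) rests on libraries with at most 34.3 normalized counts. Without the same pair of libraries it was 0.78 ± 0.129 and passed (adjusted p = 0.0380). With Ttr as the only term and without that pair, it was 0.64 and did not pass (adjusted p = 0.0729).

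Of the 4 genes of junctions and keratins, 3 passed the slope on Ttr, and all 4 had an unadjusted p under 0.05. Cldn2, the claudin of leaky epithelia that lets cations and water pass, was at 44.9, 360.4, 129, 253 and 55.9 in WT and 159, 59.7, 19.4 and 286 in cKO. Cldn2 (ENSMUSG00000047230, chromosome X, 138701576 to 138712135) spanned 18.6-fold, with a slope of 0.49 ± 0.0339 (limma adjusted p = 3.02e-06) and 23.7% ± 7.48 of the mean left at no Ttr. Cldn1, a sealing claudin, was at 243, 383, 239.6, 329 and 168 in WT and 344, 227, 260.3 and 393 in cKO. Cldn1 (ENSMUSG00000022512, chromosome 16, 26175391 to 26190591) did not pass over all 9 libraries, with a slope of 0.12 ± 0.0256 (limma adjusted p = 0.105) and 76.4% ± 5.89 of the mean left. Without the pair of libraries lowest in Ttr its slope was 0.29 ± 0.0347 and passed (adjusted p = 0.00305). The pair of claudins thus shared the highest libraries but not the size of the range.

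Krt8 and Krt18 encode partner keratins of simple epithelia. Krt8 (ENSMUSG00000049382, chromosome 15, 101905132 to 101912917) was at 1.99, 30.1, 20.5, 19.1 and 8.60 in WT and 30.8, 4.90, 1.94 and 30.2 in cKO, with a slope of 0.50 ± 0.0581 (limma adjusted p = 0.000527). Krt18 (ENSMUSG00000023043, chromosome 15, 101936614 to 101940462) was at 9.97, 94.5, 25.4, 28.1 and 4.30 in WT and 48.7, 11.8, 6.77 and 67.0 in cKO, with a slope of 0.49 ± 0.0718 (limma adjusted p = 0.00458). The keratins were low everywhere, and Krt18 in WT replicate 2 stood apart from the other WT libraries. Without the pair of libraries lowest in Ttr the slope was 0.90 ± 0.122 for Krt18 (adjusted p = 0.00941) and 0.36 ± 0.119 for Krt8, which no longer passed (adjusted p = 1).

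All 3 transcription factors rose with Ttr. Otx2, a homeodomain factor needed for the development and upkeep of the plexus, was at 11.0, 222, 87.0, 139 and 47.3 in WT and 140.2, 37.2, 5.81 and 175 in cKO. Otx2 (ENSMUSG00000021848, chromosome 14, 48895133 to 48911276) spanned 38.3-fold, and its slope of 0.61 ± 0.0304 (limma adjusted p = 9.55e-08) was the steepest of the 3. Msx1, a homeodomain factor of the dorsal midline, was at 141, 337, 183, 251 and 119 in WT and 236, 137, 140.3 and 283 in cKO. By the straight line, Msx1 (ENSMUSG00000048450, chromosome 5, 37977828 to 37981927) had 63.7% ± 2.48 of its mean left at no Ttr, against 23.6% ± 6.40 for Otx2. In cKO replicate 3, the lowest in Ttr, Otx2 itself was lower than that line. The slope of Msx1 was 0.18 ± 0.0275 (limma adjusted p = 0.00635). The slope of Msx1 became 0.35 ± 0.0408 (adjusted p = 0.00248) without the pair of libraries lowest in Ttr, and was 0.19 without cKO replicate 4, where it did not pass (adjusted p = 0.0533). Lmx1a, a LIM-homeodomain factor of the roof plate and the cortical hem, was scarce. Lmx1a (ENSMUSG00000026686, chromosome 1, 167516805 to 167676310) was at 8.98, 30.1, 19.6, 33.1 and 17.2 in WT and 27.8, 7.83, 3.87 and 29.2 in cKO, with a slope of 0.34 ± 0.0476 (limma adjusted p = 0.00319). Lmx1a no longer passed without the pair of libraries lowest in Ttr, at 0.22 ± 0.106 (adjusted p = 1).

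Of the adaptors, Calml4, a calmodulin-like protein, was at 27.9, 153, 46.0, 94.4 and 32.3 in WT and 67.6, 27.4, 13.6 and 103 in cKO. Calml4 (ENSMUSG00000032246, chromosome 9, 62765361 to 62783203) had a slope of 0.38 ± 0.0390 (limma adjusted p = 0.000156) and 30.6% ± 7.03 of its mean left at no Ttr. Cab39l, a scaffold of the kinase LKB1, was far more even, at 815, 1353, 886, 1174 and 855 in WT and 993, 840.2, 788 and 1233 in cKO. Cab39l (ENSMUSG00000021981, chromosome 14, 59678420 to 59823213) had a slope of 0.09 ± 0.0160 (limma adjusted p = 0.0169) and 80.1% ± 2.21 of its mean left. It overlaps Cdadc1, whose own slope was 0.0027. The slope of Cab39l did not pass without WT replicate 1 (0.09, adjusted p = 0.0825) or WT replicate 2 (0.08, adjusted p = 0.0540). Nor did it pass without cKO replicate 2 (0.09, adjusted p = 0.0823) or cKO replicate 4 (0.08, adjusted p = 0.204). Without the pair of libraries lowest in Ttr it was 0.17 ± 0.0332 (adjusted p = 0.124).

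**Figure D3:**
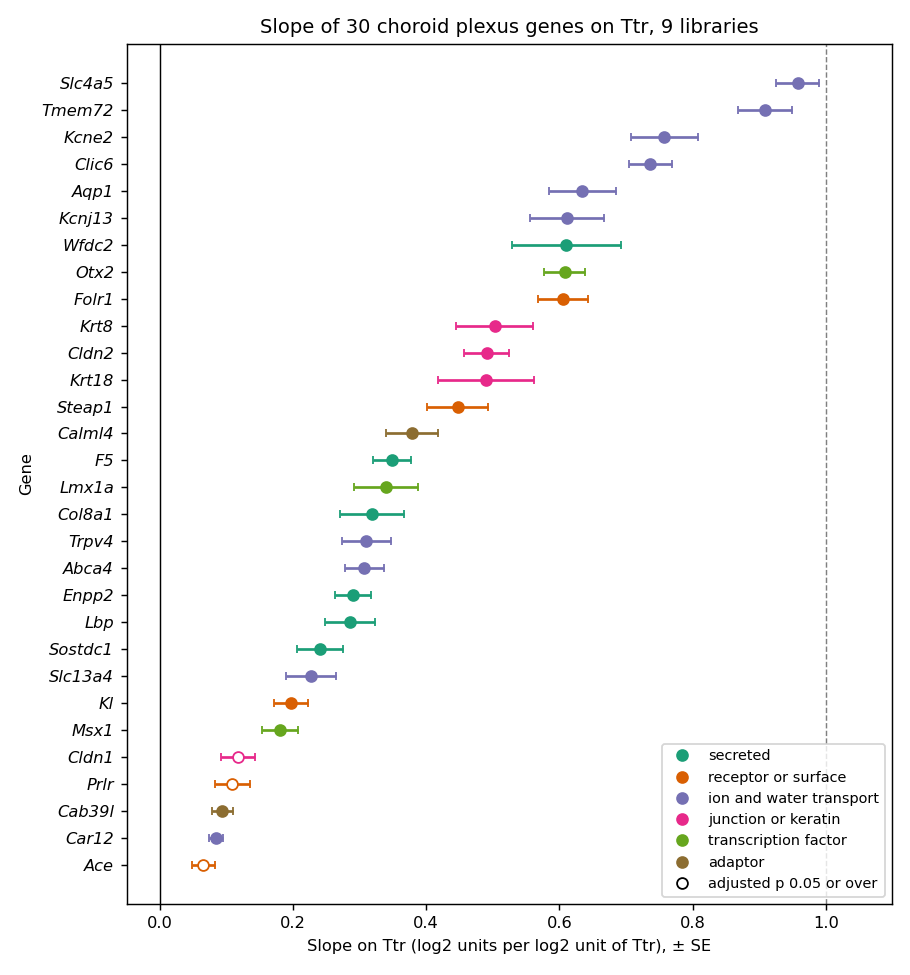
Slope of each choroid plexus gene on Ttr (log2 against log2, with genotype and sex as terms), with bars of 1 SE, in order of slope and coloured by role, filled where the limma adjusted p was under 0.05. A dashed line marks a slope of 1. The slopes run from 0.96 for Slc4a5 to 0.07 for Ace, and Prlr, Ace and Cldn1 are those that did not pass.

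**Figure D4:**
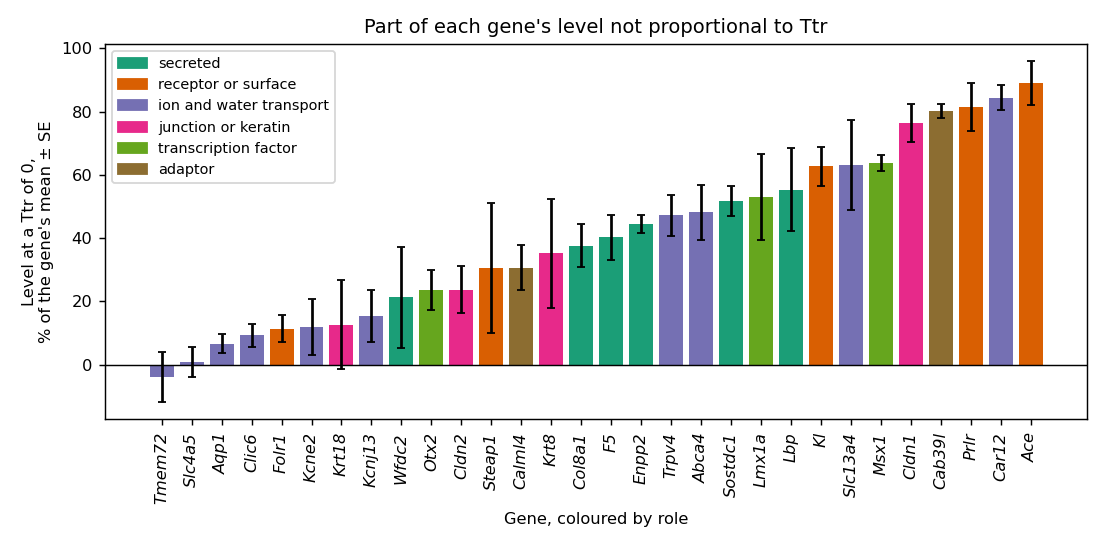
Level left at a Ttr of 0 for each gene, as a percentage of its mean over the 9 libraries, from a straight line of the gene on Ttr, with bars of 1 SE. Bars are coloured by role. Tmem72 (-3.99%) and Slc4a5 (0.884%) lie near 0, and Ace (89.0%) is at the far end.

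The plot of levels left at no Ttr sets the 30 genes other than Ttr along a scale. At the low end were Tmem72, Slc4a5, Aqp1, Clic6, Folr1, Kcne2, Krt18, Kcnj13, Wfdc2, Otx2 and Cldn2, for which under 25% of the mean was left at no Ttr. At the high end were Cldn1, Cab39l, Prlr, Car12 and Ace, for which over 70% was left. Claudin 1 is also made by other barrier cells and Ace by endothelium, which is background and not a result of these data. Per kb of exon, the mean levels of Ace and Cab39l, 137 and 145 normalized counts, were above the 83.9 of Aqp1, so these genes that followed Ttr little were not scarce.

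Whether genes of this group followed other cells instead was examined with the same fit, putting the mean log2 level of another marker list in the place of Ttr. None of the 31 genes passed for any of the 5 lists (limma-trend, and edgeR on the recovered reads likewise 0). The smallest adjusted p was that of Lbp on the ependymal list, with a slope of 1.92 ± 0.398 (limma adjusted p = 0.0952). Ace had a slope of -1.74 ± 0.855 on the endothelial list (limma adjusted p = 0.672). Enpp2 had 2.15 ± 0.882 on the myelin list (limma adjusted p = 0.666), and 0.23 ± 0.426 with Ttr as a further term. Of all genes tested, 0.0940% passed for ependymal cilia, 0% for myelin, 0% for meningeal fibroblasts, 0.00587% for endothelium and 0.0176% for mural cells. At an unadjusted p under 0.05 stood 18 of the 31 genes for the 14 ependymal genes, against 7.38% of all genes, and 17 of 31 for the 12 myelin genes, against 7.29% of all genes. By the same threshold there were 2 of 31 for the 19 meningeal genes (3.51% of all genes), 1 for the 14 endothelial genes (7.47%) and 1 for the 8 mural genes (3.35%). Slopes behind the ependymal, myelin and meningeal counts were above 0. Those behind the other counts were below 0, at -3.46 ± 1.26 for Prlr on endothelium and -0.94 ± 0.408 for Ace on mural cells. With Ttr as a further term the counts passing were again 0. Lbp on the ependymal list was again nearest, at 1.03 ± 0.198 (limma adjusted p = 0.0648). The unadjusted counts among the 30 other genes were then 4 for the ependymal list (8.8% of all genes), 0 for myelin (6.85%), 5 for meningeal (3.05%), 4 for endothelial (6.77%) and 3 for mural (3.77%). These counts take both directions. All the meningeal and mural ones had slopes below 0, such as -1.02 ± 0.438 for Calml4 (meningeal) and -1.54 ± 0.310 for Kl (mural). Of the ependymal ones only Lbp was above 0, and the endothelial ones were all above 0.

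The lists themselves were set beside Ttr over the 9 libraries, 10 relations in all, with two-sided exact permutation tests. The mean of 20 further choroid plexus genes, none of them among the 31, ran with Ttr at r = 0.958 (permutation p = 2.76e-06, adjusted p = 2.76e-05) and rho = 1 (permutation p = 5.51e-06, adjusted p = 5.51e-05), each the smallest p the permutations can give. It was 0.989 without the libraries farthest from the median of Ttr, cKO replicate 3 and WT replicate 1, 0.957 within WT and 0.960 within cKO. By gene, 11 of these 20 passed above 0 (limma-trend), at a median slope of 0.08. At an unadjusted p under 0.05 stood 18 of the 20, against 4.44% of all genes. The 31 genes and these 20 were chosen with earlier results of these data known, so their p-values are not independent support.

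No other list passed after adjustment. A list of 7 thalamic genes, a check for tissue beside the hippocampus, gave r = 0.815 (permutation p = 0.0104, adjusted p = 0.0518) and rho = 0.7 (permutation p = 0.0433, adjusted p = 0.216). Its r was 0.552 without the same pair of libraries, 0.769 within WT and 0.903 within cKO. Its mean spanned 0.176 on the log2 scale over the libraries, and that of the 20 choroid plexus genes 1.19. Myelin gave r = 0.618 (permutation p = 0.0748, adjusted p = 0.249) and rho = 0.6 (permutation p = 0.0968, adjusted p = 0.323), and the relation rests on the same pair, since r was -0.0961 without them. Within WT the r of myelin was 0.892 and within cKO 0.367. Ependymal cilia gave r = 0.560 (permutation p = 0.119, adjusted p = 0.297) and rho = 0.55 (permutation p = 0.133, adjusted p = 0.332), and 0.405 without the pair, 0.347 within WT and 0.828 within cKO. The r was 0.352 for meningeal, 0.268 for hippocampal neuron, 0.167 for astrocyte, 0.0705 for microglia, 0.0209 for mural and -0.0522 for endothelial genes, with adjusted p from 0.696 to 0.961 (exact permutation). The endothelial r was 0.465 within WT and -0.789 within cKO. With 5 WT and 4 cKO libraries, these values within a genotype are given without a test.

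By gene, none of the ependymal, meningeal, endothelial, mural, myelin, astrocyte, microglia, hippocampal neuron or thalamic markers passed the slope on Ttr, by limma-trend or by edgeR. At an unadjusted p under 0.05 there were 5 of 14 ependymal, 4 of 19 meningeal, 3 of 14 endothelial, 6 of 12 myelin and 1 of 7 thalamic genes, and 0 in the other 4 lists, against 4.44% of all genes. Summed levels of the lists of nearby tissue overlapped between genotypes: 1304 to 2299.8 in cKO and 1284 to 2549.6 in WT for ependymal cilia, and 22687 to 34692 in cKO and 22275 to 33162 in WT for myelin. Meningeal genes summed to 11224 to 13628 in cKO and 8961 to 13659 in WT, and all 19 were above 0 in every library. Thalamic genes summed to 5888 to 6373 in cKO and 5843 to 6726 in WT. Mural sums did not overlap, at 10106 to 11677 in cKO and 11686 to 13052 in WT. Rgs5, with a mean of 7569, is the largest part of these mural sums. The mean log2 levels of the mural list did overlap, at 9.12 to 9.34 in cKO and 9.04 to 9.54 in WT. Microglial sums did not overlap, at 8209 to 9230.5 in cKO and 9461 to 10114 in WT. These sums were not tested, and no gene of the mural or microglial list passed cKO against WT by limma-trend. Of all single genes tested, 6.29% had groups that did not overlap. The part of these cells in the choroid plexus values was not tested beyond the fits given.

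**Figure D5:**
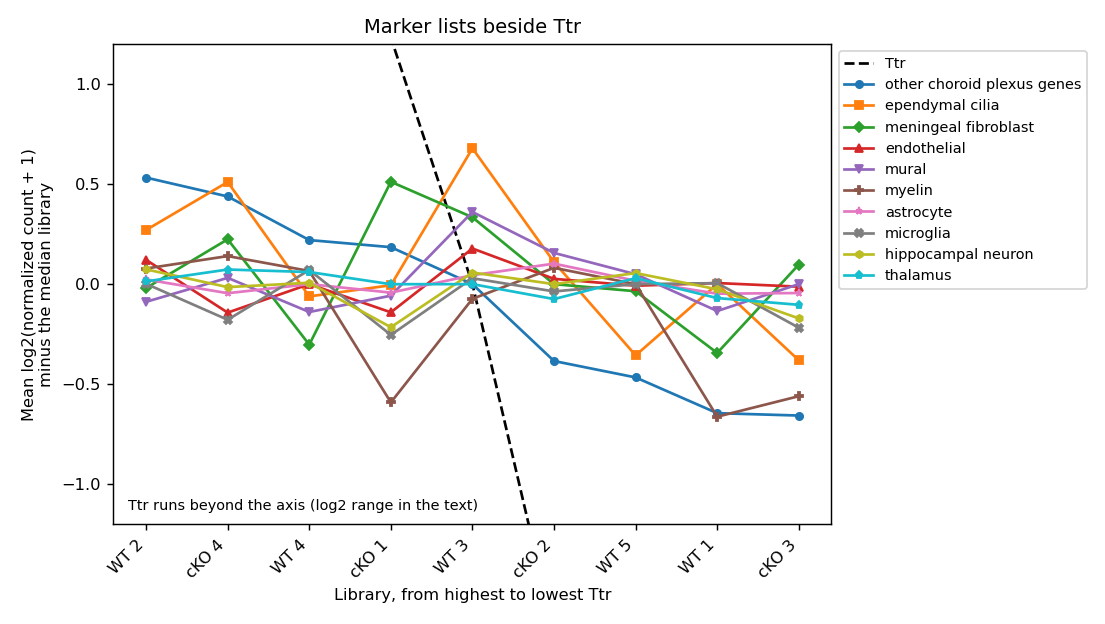
Mean log2(normalized count + 1) of each marker list, minus that of its median library, with 1 line per list and the 9 libraries in falling order of Ttr (dashed, beyond the axis at both ends). The line of the other choroid plexus genes falls in the order of Ttr (rho = 1), and the lines of other cells show no relation that passed after adjustment.

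The question of the study's design, cKO against WT, was then asked of the 31 genes with sex as a term. None passed by limma-trend, none had an unadjusted p under 0.05 (11.3% of all genes did), and edgeR and DESeq2 on the recovered reads also called 0. Of all 17036 genes tested, 0.346% passed in either direction, 59 genes. That number was 57 by edgeR, 200 by DESeq2, 216 without the sex term, 10 without cKO replicate 2 and 21 without WT replicate 1. Values of cKO and WT libraries overlapped for all 31 genes, while 6.29% of all genes tested had groups that did not overlap. Log2 fold changes ran from -0.44 ± 0.632 for Lmx1a (SE, adjusted p = 0.83) to 1.42 ± 1.08 for Kcnj13 (adjusted p = 0.645), with a median of 0.19, against -0.0034 over all genes, and 23 of the 31 were above 0. These directions turned with single libraries. Without WT replicate 1, the only WT male, the median was -0.97 and all 31 were below 0. Without cKO replicate 2, the only cKO female, the median was 1.35 and all 31 were above 0. Without the sex term the median was -0.06, with 11 above 0. The smallest adjusted p was 0.628, for Slc13a4 at 0.62 ± 0.442.

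The libraries of each group were far apart, and these folds carry wide errors. Ttr was 15346 ± 17168 in WT (SD, n = 5) and 13886 ± 14883 in cKO (SD, n = 4), and its log2 fold change was 0.99 ± 1.67 (limma adjusted p = 0.857). Without the sex term the estimate was -0.33, and without WT replicate 1 it was -2.13, so its direction was not settled. Folr1 was 149 ± 152 in WT and 131 ± 117 in cKO, Clic6 306 ± 309 and 271 ± 267, and Enpp2 4892 ± 3180.1 and 4354 ± 2371. Genes that followed Ttr little had narrower groups: Car12 was 1141 ± 187 in WT and 991 ± 189.7 in cKO, and Ace 705 ± 86.7 and 754 ± 181. Kcnj13 and Slc13a4 were at -1.05 and -0.56 without WT replicate 1, and Lmx1a at 0.70 without cKO replicate 2.

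With log2 Ttr as a further term the median SE of the fold changes fell from 0.619 to 0.223. The comparison then still called 0 of the 30 genes (limma-trend, and 0 by edgeR), with 7 at an unadjusted p under 0.05 (11% of all genes). The smallest adjusted p was that of Car12, at a log2 value of -0.26 ± 0.0630 for cKO minus WT (adjusted p = 0.135). Kcne2 stood at -1.04 ± 0.308 (adjusted p = 0.232), Cldn2 at -0.69 ± 0.210 (adjusted p = 0.243) and Kcnj13 at 0.82 ± 0.348 (adjusted p = 0.408).

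The slope on Ttr itself was compared between genotypes with an interaction term. None of the 30 genes passed (limma-trend, smallest adjusted p = 0.334, and 0 by edgeR), with 11 at an unadjusted p under 0.05 (2.81% of all genes). Most of these terms were below 0, a lower slope in cKO, such as -0.38 ± 0.0677 for Kcnj13 and -0.18 ± 0.0380 for Enpp2. Those of Wfdc2, Slc4a5, Otx2 and Lmx1a were above 0. Neither sex (smallest adjusted p = 0.797) nor the interaction of sex and genotype (smallest adjusted p = 0.570) passed for any of the genes by limma-trend or edgeR, with 0 and 13 of 31 at an unadjusted p under 0.05 (6.73% and 7.9% of all genes). With a single WT male and a single cKO female, that interaction rests on few animals.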

How the data were processed

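Libraries were made from total RNA of 9 hippocampi with a directional kit, per the labels' protocols. FastQC 0.12.1, cutadapt 4.4, STAR 2.7.10b, DESeq2 1.41.8 and the GRCm39 build are named in the submitters' processing notes. Which read counter, annotation and strand setting were used is not given there or in the labels. The table deposited by the authors holds 1 signal value per gene and library. From its steps, each library's counts had been divided by a common size factor. Multiples of the step (0.943 to 1.08) accounted for 100.0% of values above 0, within 0.1 read, with totals of 30803135 to 34034530 reads. In WT replicates 1 and 4 and cKO replicate 1 the step is so near 1 that this check says little there. Chi-square per gene between libraries of 1 group was 3.622 to 12.91, above sampling noise.

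Tests used limma-trend (limma 3.58.1, R 4.3.3) on log2(normalized count + 1), over 17036 genes with a mean of at least 10, with Benjamini-Hochberg adjustment over all of them and a threshold of 0.05. On this scale changes of low genes are understated. Terms were genotype and sex, or log2 Ttr (or a list mean), genotype and sex. Alternatives were pseudocounts 0.5 and 5, no filter, TMM scaling, edgeR 4.0.16 (66 genes called on Ttr, 57 on genotype) and DESeq2 1.42.0 (200 on genotype) on recovered reads, no sex term, each sex, other measures in place of Ttr, and each library left out. The scripts were tested on simulated data. Tables and figures were made with Python 3.11.15 (pandas 2.3.3, numpy 2.4.6, matplotlib 3.10.9).

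The 31 genes and all lists were chosen with earlier results of these data known. Every member was to be described, with all libraries given for Ttr, for up to 3 of highest mean per role and for those passing a test or of lowest slope. Up to 12 other genes with a mean of at least 50 and the smallest p for a positive slope on Ttr were named. Replicates are numbered in record order. 1 list gene was not matched. Exon lengths are from GENCODE M21, and promoter windows from RefSeq (GRCm38.p6). Coordinates of genes are those of the deposited table.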

Additional observations from a re-analysis of the deposited data

Results flagged for a closer look

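Over 82 groups of values (the 31 genes and the list means, in each genotype), 3 had a library whose gap to its nearest neighbour was large against the range of the group, where chance flags about 1 in 20. Krt18 in WT replicate 2 was the highest WT library, at 94.5 normalized counts. The mean log2 level of myelin genes in WT replicate 1 was the lowest of WT, at 8.62. The mean log2 level of astrocyte genes in cKO replicate 2 was the highest of cKO, at 13.1.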

How the results depend on the processing

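No choroid plexus gene passed the test of cKO against WT under any alternative run. The slope on Ttr called 27 of 30 with pseudocounts 0.5 and 5, no filter, TMM scaling, no sex term and edgeR, 26 with Ttr as the only term, and 24 when the libraries farthest from the median of Ttr were also left out, where Wfdc2, Car12, Krt8 and Lmx1a no longer passed and Cldn1 did. Leaving out 1 library at a time gave 24 to 27, and 23 genes were called in all 9 of those fits. With the mean of Folr1, Kl, Clic6 and Kcnj13 in place of Ttr, 25 of 27 passed. Without cKO replicate 3 and WT replicate 1, an alternative chosen after seeing the data, 20 of 30 passed. With genotype and sex as terms, that fit gives cKO replicate 2 no weight and rests mostly on the WT females. Over all genes, 67 slopes passed above 0 with every library, 43 without cKO replicate 4 and 37 without that pair. The cKO against WT test called 59 of all genes, 200 by DESeq2, 216 without the sex term, 40 with Ttr as a term, 11 in females only, 3 in males only and 10 to 65 with 1 library left out.

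The direction of the fold changes of cKO against WT was not stable. It changed for 23 of the 31 genes without WT replicate 1 and in females only, for 8 without cKO replicate 2 and in males only, for 14 without the sex term, for 15 of 30 with Ttr as a term, and for 1 to 11 without any 1 other library. Among the genes whose folds are given, these were Ttr (-0.33 without the sex term, -2.13 in females only), Kcnj13 (-1.05 in females only), Slc13a4 (-0.56 in females only) and Lmx1a (0.70 in males only). Leaving out 1 library at a time they ranged from -2.13 to 4.33 for Ttr, from -1.05 to 4.06 for Kcnj13, from -0.56 to 1.87 for Slc13a4 and from -1.51 to 0.70 for Lmx1a. WT replicate 1 is the only WT male and cKO replicate 2 the only cKO female. Without either, the fold change with a sex term rests on the other alone for 1 arm, assumed to vary like the rest, while the slope on Ttr gives that other library no weight. No paired analysis was possible because the replicate numbers are in record order and the labels pair no mice. Counting error limits Wfdc2, Krt8, Slc4a5, Tmem72 and Kcnj13 most, which have libraries at 3 reads or fewer.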

Other observations

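Of the 67 genes that rose with Ttr, 40 were outside the 31 described. Those with the smallest p were led by Wfikkn2, a secreted inhibitor of growth factors of the TGF-beta family. Wfikkn2 was at 23.9, 214, 109, 189 and 36.6 normalized counts in WT replicates 1 to 5 and 263, 71.5, 29.0 and 405 in cKO replicates 1 to 4, with a slope of 0.52 ± 0.0283 (limma adjusted p = 2.22e-07). It was highest in cKO replicate 4, not in WT replicate 2. Mfrp, a membrane protein with a frizzled-related domain, was at 3.99, 226, 57.7, 139 and 4.30 in WT and 98.4, 17.6, 0.970 and 153 in cKO, with a slope of 0.88 ± 0.0722 (limma adjusted p = 1.49e-05). Ecrg4, which encodes a secreted peptide precursor, was at 71.8, 565, 207, 320.3 and 91.4 in WT and 295, 118, 67.7 and 389 in cKO, with a slope of 0.39 ± 0.0324 (limma adjusted p = 1.49e-05). Both Mfrp and Ecrg4 had their highest value in WT replicate 2.

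Col8a2, partner chain of Col8a1, had a slope of 0.35 ± 0.0291 (limma adjusted p = 1.49e-05), near the 0.32 of Col8a1. Steap2, of the same family as Steap1, had 0.11 ± 0.0136 (limma adjusted p = 0.000692), and Steap1 had 0.45. The carbonic anhydrase Car14 had 0.32 ± 0.0408 (limma adjusted p = 0.00116), against 0.08 for Car12. The glucose transporter Slc2a12 had 0.18 ± 0.0205 and the sulfatase Sulf1 0.29 ± 0.0373. The others named by the rule were Wdr86 at 0.36 ± 0.0296, Emb at 0.11 ± 0.0127, Sema3b at 0.22 ± 0.0306 and Klhdc7a at 0.18 ± 0.0266, with limma adjusted p of 1.49e-05, 0.000721, 0.00277 and 0.00389. Differences between the slopes of these genes were not tested.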
